A study of Mus musculus with 6 samples.

Results

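The genes described here encode ion channels and their auxiliary subunits, the membrane proteins that let potassium, calcium, sodium, chloride or protons cross a membrane. They were taken from an array series on differentiated mouse inguinal fat cells, the fat-storing cells grown from a subcutaneous white depot, as those probe sets with exactly 1 platform gene symbol that begins with Kcn, Cacn, Trpa, Trpc, Trpm, Trpv, P2rx, Clcn or Scn, or is Otop1. For the Trp, P2rx, Clcn and Scn names a digit had to follow at once. This gave 154 genes on 327 of the 45101 probe sets of the array, out of 18193 genes with such a probe set, and each gene was read from its probe set with the highest mean. Of the 154 genes, 48 had a mean intensity of 50 or more in at least 1 group and are described here, while 106 stayed below 50 in both groups. Of the 48 genes, 42 reached 50 in both groups and 6 in 1 group only, namely Otop1 and Kcnma1 in rosiglitazone cells alone and Kcnab1, Kcnab2, Clcn2 and Scn3b in control cells alone. Just inside the threshold lay Clcn2, with means of 38.4 with rosiglitazone and 51.3 in control cells, and just outside it lay Kcna1, with 23.9 and 47.8 in the same order of groups. The name pattern also took in Kcnq1ot1, a non-coding RNA, and Trpc4ap, which encodes a protein that associates with a channel, and neither encodes a channel subunit.

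Of the 6 arrays 3 came from cells kept in 1 uM rosiglitazone over 4 days and 3 from control cells without the drug. Rosiglitazone is a thiazolidinedione drug that activates the nuclear receptor PPARγ, and in the labels the treatment stands for beiging, in which white fat cells take on heat-producing traits. No strain, sex or age of the mice was given in the labels, and they do not say whether samples of the same group were grown as separate cultures. The spread behind each p-value is that between these arrays and could be technical. Of the fat cell markers, Adipoq, Fabp4 and Lpl did not pass the test and Pparg was lower with rosiglitazone, and all 4 were bright on every array.

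Potassium channels set the resting membrane potential of a cell, and in mouse brown fat the acid-sensitive potassium channel Kcnk3 (TASK-1) is known to restrain the heat-producing response to adrenergic signals. Channels of the TRP family pass calcium and other cations, and loss of Trpv2 in mice is known to impair heat production by brown fat. Otop1 encodes a proton channel first known in mice from the inner ear and later from acid-sensing taste cells. P2X receptors are cation channels opened by extracellular ATP, and CLC proteins carry chloride across the cell surface or the membranes of endosomes and lysosomes.

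The 2 genes with the largest positive differences that have a promoter window in the RefSeq table used (build GRCm38.p6) were Otop1 and Trpv2, and these windows of 300 bases around an annotated start are shown because the genes shared a direction. The window of Otop1 lies on the plus strand at chr5:38277154-38277453, and that of the most upstream of 3 listed starts of Trpv2 on the plus strand at chr11:62574236-62574535.
Otop1: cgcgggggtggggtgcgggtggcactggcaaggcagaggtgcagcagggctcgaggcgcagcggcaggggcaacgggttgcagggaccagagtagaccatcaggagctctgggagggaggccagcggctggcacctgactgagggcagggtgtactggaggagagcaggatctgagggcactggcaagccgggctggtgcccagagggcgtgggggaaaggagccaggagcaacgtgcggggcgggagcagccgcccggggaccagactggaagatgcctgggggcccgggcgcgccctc
Trpv2: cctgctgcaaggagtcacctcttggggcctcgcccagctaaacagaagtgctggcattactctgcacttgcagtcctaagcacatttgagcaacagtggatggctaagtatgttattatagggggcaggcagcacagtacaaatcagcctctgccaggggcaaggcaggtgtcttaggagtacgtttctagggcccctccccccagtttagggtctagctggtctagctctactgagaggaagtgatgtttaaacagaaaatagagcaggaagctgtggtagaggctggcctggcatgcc
Both strands were searched for AGGTCA, the half-site bound by PPARγ and its partner RXR, and for a direct repeat of this half-site with 1 base of any kind between the copies, which is the layout of the full site. Capitals would mark a match, and neither window had one for either motif. Of 32851 windows of this length in the table, 16.3% held the half-site and 0.0396% the repeat. The 48 genes had 52 windows from 38 genes, and 4 of these, of Cacna1f, Clcn7, P2rx4 and Trpm1, held the half-site and 0 the repeat. Only exact matches were counted, and the repeat is so rare that its absence from a window tells little. The windows say nothing of sites that vary from these letters or lie farther from the start.

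Otop1 and Kcnk3 were picked out with their difference already known, and the 6 genes that reached 50 in 1 group only had to differ to do so, so these 7 genes are given as values with no test. The intensity of Otop1 was 244, 217 and 214 on the rosiglitazone arrays, against 5.29, 6.19 and 8.25 on the control arrays. All 3 control values lay under 16, the floor to which lower intensities were raised before log2 was taken, and the gene has 1 probe set on the array. Otop1 was thus at least 14.0-fold higher with rosiglitazone, computed against the floor. Kcnk3 had 694, 687 and 701 on the rosiglitazone arrays, against 268, 251 and 240.25 on the control arrays. The rosiglitazone values lay close together and far above every control value, a 2.75-fold difference (log2 1.46). A dimmer probe set of Kcnk3 gave 61.4, 41.4 and 43.65 with rosiglitazone and 25, 24.9 and 26.3 in control cells, at a log2 difference of 0.92. It passed the filter on low values, at an intensity of 26.75, through the rosiglitazone arrays alone, so it adds no separate support.

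**Figure D1:**
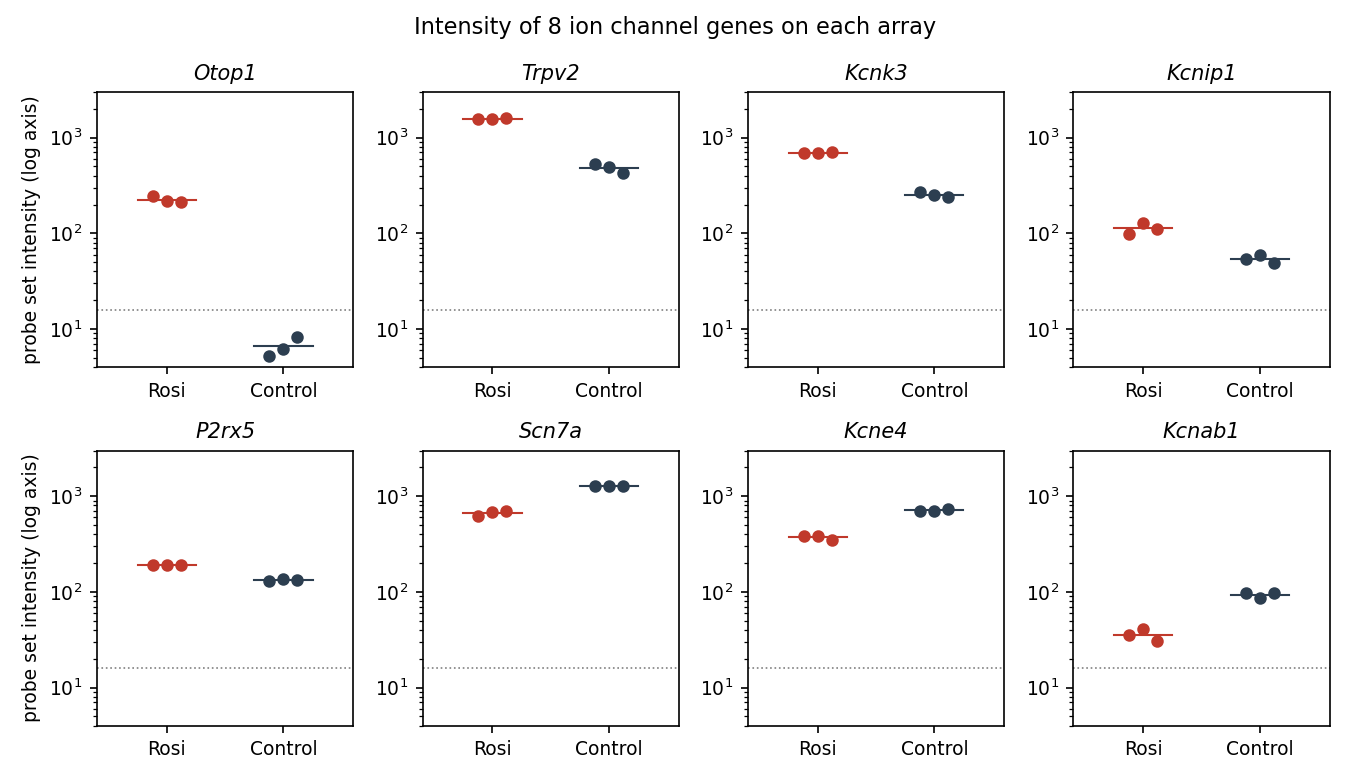
Probe set intensity (vertical log axis) on each array for 8 ion channel genes, with 3 rosiglitazone arrays (red, left, "Rosi") and 3 control arrays (dark, right) per gene; short lines are group means and the dotted line is the floor of 16. The 2 groups do not overlap for any of the 8 genes, and only the control arrays of Otop1 lie under the floor. The 8 were chosen for display and include every member at least 2-fold apart, so their lack of overlap is no result. Of all 48 members 22 did not overlap, against 69.0% of the 11554 genes that reached 50 in at least 1 group.

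The other members were tested with limma across all 12947 genes that passed a filter on low values, and a gene is called here when its adjusted p was under 0.05. Of the 41 genes that reached 50 in both groups, Kcnk3 left out, 7 rose, 7 fell and 27 did not pass the test, so 34.1% were called. Among all 10886 genes that reached 50 in both groups 65.0% were called, 26.0% higher and 39.1% lower, and among all 12947 genes tested 59.3% were called, 23.6% higher and 35.7% lower. The 2 groups of arrays did not overlap for 17 of the 41 genes, against 69.0% of the 10886 genes. The median log2 difference of the 41 genes was 0.03, against −0.06 for the 10886. Other scalings changed how the calls divided. The deposited values gave 7 rises and 7 falls, quantile-normalized values 12 rises and 6 falls, and arrays centred on their medians 17 rises and 5 falls. Among the 10886 genes 65.4% were called after quantile normalization and 66.0% after median centring. Of all 12947 genes, quantile-normalized values called 3937 higher and 3772 lower, median-centred ones 4551 higher and 3278 lower, and the deposited ones 3051 higher and 4627 lower. The median log2 difference of all genes was −0.05, 0.02 and 0.07 on these 3 scales.

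**Figure D2:**
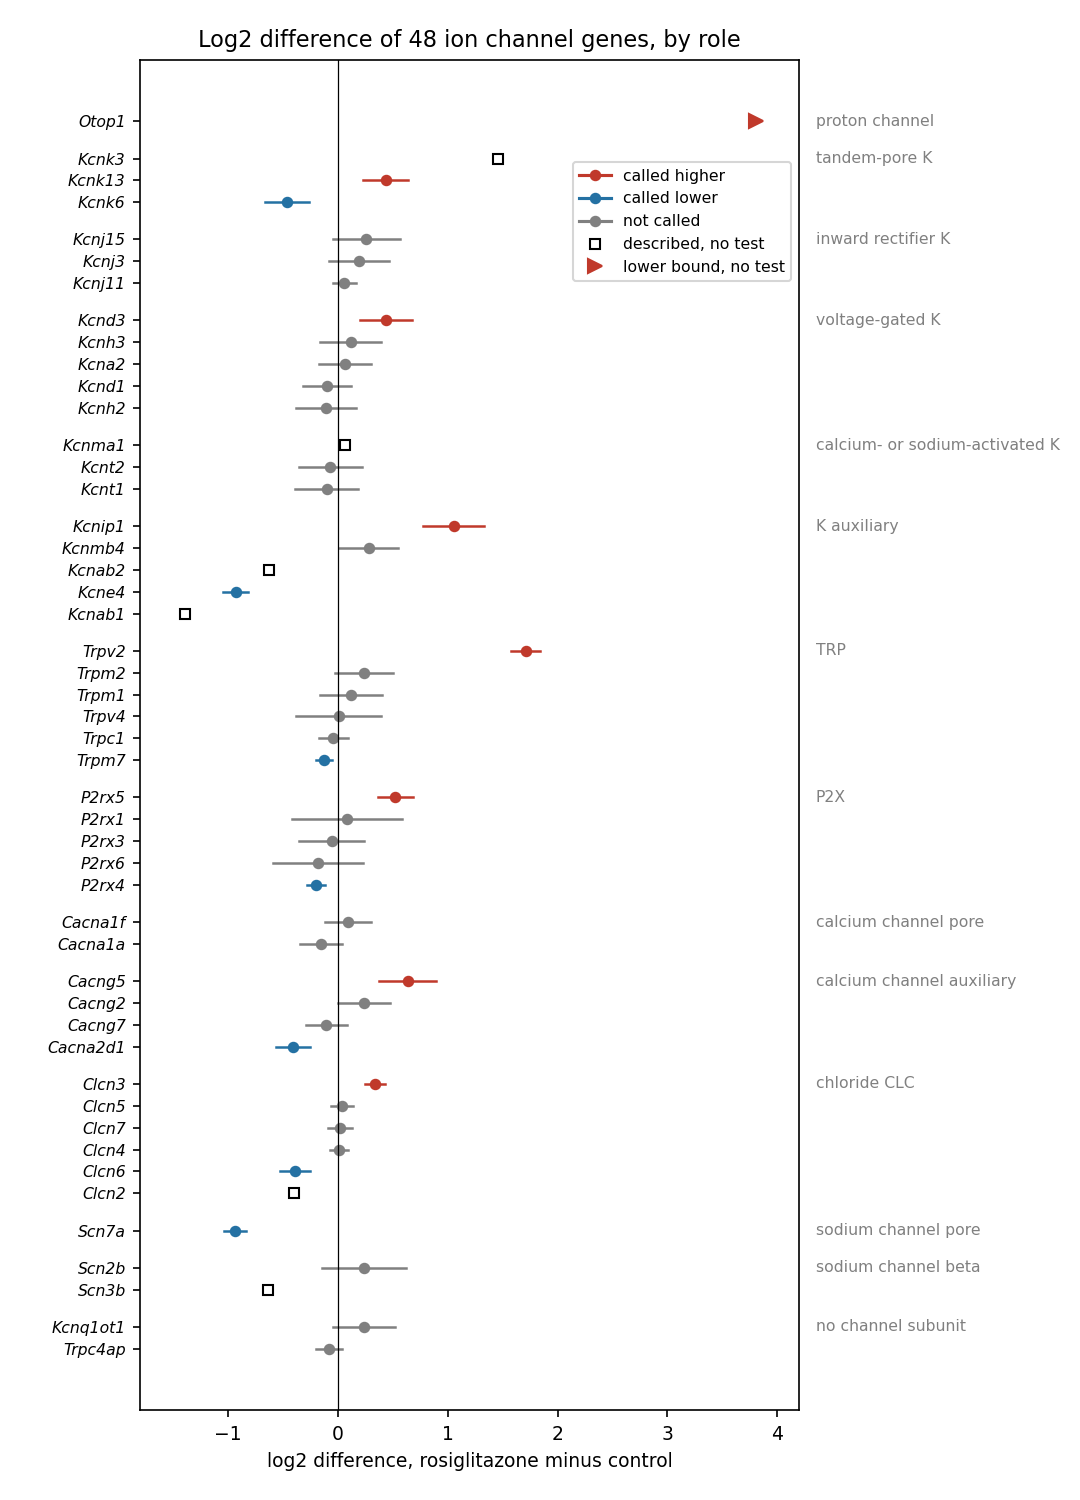
Log2 difference, rosiglitazone minus control (horizontal axis), of the 48 genes grouped by role; points with bars are limma estimates with 95% intervals, open squares are genes described without a test and the triangle is the lower bound of Otop1. The called genes lie on both sides of 0, 7 higher and 7 lower.

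Precision differed with brightness. The median standard error on the log2 scale was 0.13 for the 19 tested members with a mean under 100, 3 of them called. It was 0.09 for the 11 between 100 and 500, 5 of them called, and 0.05 for the 11 at 500 or more, 6 of them called. With a threshold of 100 in place of 50 in both groups, 11 of 22 members were called, against 69.6% of all genes past that threshold. With a threshold of 25, 20 of 71 were called, against 59.2%.

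Among the tandem pore-domain potassium channels, which leak potassium at rest, Kcnk13 rose and Kcnk6 fell beside the higher Kcnk3. Kcnk13 (THIK-1) had 181, 159 and 142 with rosiglitazone and 113, 125 and 117 in control cells, a rise of 0.44 on the log2 scale (SE 0.10, adjusted p = 0.000987). Kcnk6 (TWIK-2) had 107, 93.3 and 115 with rosiglitazone and 146, 140.5 and 147 in control cells, and fell by 0.46 (SE 0.10, adjusted p = 0.000495). The 3 genes of this kind that were bright enough thus did not share a direction, and the groups did not overlap for any of them. Of the 3 inward rectifiers 0 passed limma's test, also at an unadjusted p under 0.05. Kcnj11, the pore of the ATP-sensitive potassium channel, averaged 815 ± 32.5 with rosiglitazone and 784 ± 41.0 in control cells (SD, n = 3 each), a log2 difference of 0.06 (95% interval −0.05 to 0.16). After median centring Kcnj11 was called, at 0.18. Kcnj3 and Kcnj15 had log2 differences of 0.19 and 0.26 with overlapping arrays.

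Of 5 voltage-gated potassium channel genes 1 rose. Kcnd3 (Kv4.3), which carries a fast transient current, had 106, 92.0 and 98.8 with rosiglitazone and 70.9, 77.2 and 70.6 in control cells, a rise of 0.44 (SE 0.11, adjusted p = 0.00263). Its relative Kcnd1 (Kv4.1) had a log2 difference of −0.10 (95% interval −0.31 to 0.12). A dimmer probe set of Kcnd1 lay at 0.42 without overlap, so the 2 relatives cannot be said to differ. The other probe sets of Kcnd3 did not pass the filter. Kcnh3, at 228 ± 28.0 with rosiglitazone and 214 ± 52.3 in control cells (SD, n = 3 each), had overlapping arrays, and Kcnh2 and Kcna2 lay at −0.11 and 0.06. Neither of the sodium-activated channel genes Kcnt1 and Kcnt2 passed the test, at −0.10 and −0.07. Kcnma1, the large-conductance calcium-activated channel, had 56.3, 60.8 and 39.75 with rosiglitazone and 44.0, 52.4 and 51.9 in control cells, with overlap. Its log2 difference of 0.06 turned to −0.00, −0.06 and −0.02 without rosiglitazone replicate 1, rosiglitazone replicate 2 or control replicate 1.

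Of 3 tested auxiliary subunit genes of potassium channels 1 rose, 1 fell and 1 did not pass the test. Kcnip1 (KChIP1), a calcium-binding partner of Kv4 channels such as Kcnd3, had 99.3, 129 and 112 with rosiglitazone, against 54.3, 59.9 and 49.3 in control cells. This was a 2.07-fold rise (log2 1.05, SE 0.13, adjusted p = 2.62e-06), and the 3 other probe sets of Kcnip1 lay under the floor on every array. Kcne4, a single-pass subunit that inhibits several voltage-gated potassium channels, had 379.85, 386 and 349 with rosiglitazone, against 696, 703 and 729 in control cells. It fell by 0.93 on the log2 scale (SE 0.05, adjusted p = 1.70e-10), and its rosiglitazone arrays were all far below the control arrays. The lowest difference of the 48 genes was that of Kcnab1, a cytoplasmic beta subunit of Kv1 channels, with 35.6, 41.1 and 30.5 with rosiglitazone and 97.3, 85.3 and 97.0 in control cells. It was 2.62-fold lower, given as values because only the control arrays reached the threshold. Its relative Kcnab2 had 35.0, 34.6 and 43.95 with rosiglitazone and 57.3, 48.3 and 71.4 in control cells, 1.55-fold lower, with only 1 control array above 64. Kcnmb4, a subunit of the channel whose pore Kcnma1 encodes, had a log2 difference of 0.28 and did not pass the test (adjusted p = 0.0671), although its arrays did not overlap.

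Among 6 TRP channel genes Trpv2 rose and Trpm7 fell. Trpv2 had 1579, 1549 and 1589.7 with rosiglitazone, against 526, 499 and 423 in control cells. The rosiglitazone arrays agreed closely, every one of them above every control array, and the rise was 3.27-fold (log2 1.71, 95% interval 1.58 to 1.84, adjusted p = 8.60e-13). Trpm7, a magnesium and calcium channel fused to a kinase, averaged 1668 ± 6.23 with rosiglitazone and 1821 ± 58.6 in control cells (SD, n = 3 each). It fell by 0.13 as deposited (adjusted p = 0.00488). The difference was −0.06 after quantile normalization, −0.00 after median centring and −0.12 for the average over its probe sets, and Trpm7 was not called in any of these. The average takes in a dim probe set, with means of 29.5 and 29.6, that lay at −0.04. The other dimmer ones lay at −0.16 and −0.15. Trpc1 averaged 348 ± 1.99 and 359 ± 26.1 in the same order of groups, a log2 difference of −0.04 (95% interval −0.17 to 0.09). Trpm1, Trpm2 and Trpv4 had overlapping arrays and differences of 0.12, 0.24 and 0.00. For Trpv4, close to the threshold of 50, the 95% interval ran from −0.38 to 0.39.

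The 5 P2X receptor genes held 1 rise and 1 fall. P2rx5, proposed as a surface marker of beige and brown fat cells, had 191, 190.1 and 189.75 with rosiglitazone and 128, 137 and 132 in control cells, a rise of 0.52 (SE 0.07, adjusted p = 1.37e-05). P2rx4 averaged 896 ± 8.30 with rosiglitazone and 1031 ± 9.57 in control cells (SD, n = 3 each), and fell by 0.20 (adjusted p = 0.000218). This fall was −0.10 after quantile normalization and −0.08, no longer called, after median centring. P2rx1, P2rx3 and P2rx6 had overlapping arrays, with log2 differences of 0.08, −0.06 and −0.18.

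Of 4 accessory subunit genes of calcium channels 1 rose and 1 fell, and 0 of 2 pore genes was called by limma (0 also at an unadjusted p under 0.05). Cacna2d1, the alpha-2-delta subunit that carries channels to the cell surface, had 176, 159.99 and 169 with rosiglitazone, against 223, 232 and 214 in control cells. It fell by 0.41 (SE 0.07, adjusted p = 0.000114). Cacng5 had 88.1, 93.03 and 84.3 with rosiglitazone and 62.2, 54.2 and 55.0 in control cells, a rise of 0.63 (SE 0.12, adjusted p = 0.000293). Cacng5, Cacng2 and Cacng7 belong to a family whose members are best known in rodent brain as partners of glutamate receptors. Cacng2 and Cacng7 did not pass the test, at 0.24 and −0.11, but a dimmer probe set of Cacng7 lay at −0.355 without overlap. The pore genes Cacna1a and Cacna1f did not pass it either, with 95% intervals of −0.35 to 0.04 and −0.12 to 0.30, and no difference between pores and accessory subunits was tested.

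In the CLC family Clcn3 rose, Clcn6 fell and 3 genes did not pass the test. Clcn3, an endosomal chloride-proton exchanger, had 763, 743 and 725 with rosiglitazone, against 578, 601 and 589 in control cells, a rise of 0.34 (SE 0.04, adjusted p = 5.77e-06). Clcn6, of late endosomes, averaged 241 ± 15.3 with rosiglitazone and 316 ± 12.2 in control cells (SD, n = 3 each). It fell by 0.39 (adjusted p = 7.03e-05), but its dimmer probe set had a log2 difference of 0.14, and averaged over both the difference was −0.12 and not called. Clcn4, at 1358 ± 51.0 and 1348 ± 21.4 in the same order, had a 95% interval of −0.07 to 0.09 on the log2 scale. A second probe set of Clcn4, with means of 1304 and 1196, lay at 0.125 without overlap. Clcn5 and the lysosomal Clcn7 had intervals of −0.07 to 0.14 and −0.09 to 0.12. After median centring these 3 genes were called higher, at 0.13, 0.16 and 0.14. The brightest probe set of Clcn5 carries the array maker's mark for probes that may also match other sequences. Clcn2, a channel of the cell surface, had 43.1, 34.9 and 37.3 with rosiglitazone and 59.3, 55.0 and 39.7 in control cells, with overlap.

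Of the sodium channel genes Scn7a fell. It encodes a channel that responds to the sodium concentration outside the cell rather than to voltage, and had 617, 679 and 697 with rosiglitazone, against 1265, 1281 and 1276 in control cells. The control arrays agreed closely and lay far above every rosiglitazone array, and the fall was 0.94 on the log2 scale (SE 0.05, adjusted p = 4.01e-11). The beta subunit gene Scn3b had 49.0, 28.55 and 26.9 with rosiglitazone and 52.6, 49.6 and 53.9 in control cells, so that 1 rosiglitazone array lay just under the control arrays. Scn2b had a log2 difference of 0.24 with overlapping arrays. Kcnq1ot1 and Trpc4ap did not pass the test, at 0.24 and −0.08. Dimmer probe sets of Kcnq1ot1 past the filter had the opposite sign, at −0.41 and −0.16.

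Across all 48 genes, 4 were at least 2-fold higher with rosiglitazone (Otop1, Trpv2, Kcnk3 and Kcnip1) and 1 was at least 2-fold lower (Kcnab1). Among all 11554 genes that reached 50 in at least 1 group these shares were 1.63% and 4.95%, and among all 12947 genes tested they were 1.51% and 4.59%. Nothing is read from this comparison, since 3 of the 5 genes were chosen with their difference known or passed through 1 group only.

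**Figure D3:**
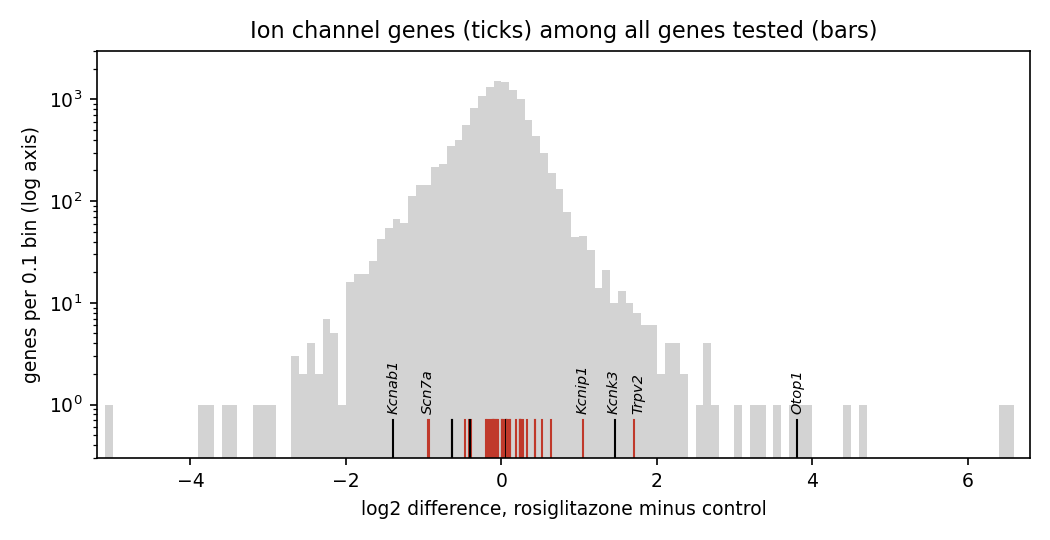
Number of genes per bin of 0.1 (vertical log axis) by log2 difference, rosiglitazone minus control (horizontal axis), for all 12947 genes tested (grey); ticks mark the 48 ion channel genes, red where tested and black where described without a test. Most ticks lie near 0, and Otop1 and Trpv2 lie on the right at 3.81 and 1.71.

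The probe sets that did not represent a gene were read from the same arrays, so they are a description and no test. Past the filter there were 32 such probe sets for 21 of the genes, and 22 had the same sign as the brightest. For called genes 12 of 13 shared the sign, the exception being that of Clcn6. The 3 probe sets of Scn7a gave −0.94, −1.03 and −1.005, and the 4 of Clcn3 gave 0.34, 0.35, 0.31 and 0.38. Those of Cacna2d1 gave −0.41, −0.44 and −0.22. For genes not called, 8 of 17 shared the sign. A dimmer probe set of Kcna2 lay at −0.98 and 1 of 2 dimmer ones of Kcnh3 at −0.87, while the brightest lay at 0.06 and 0.11. Which transcripts each of these probe sets reads was not tested.

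**Figure D4:**
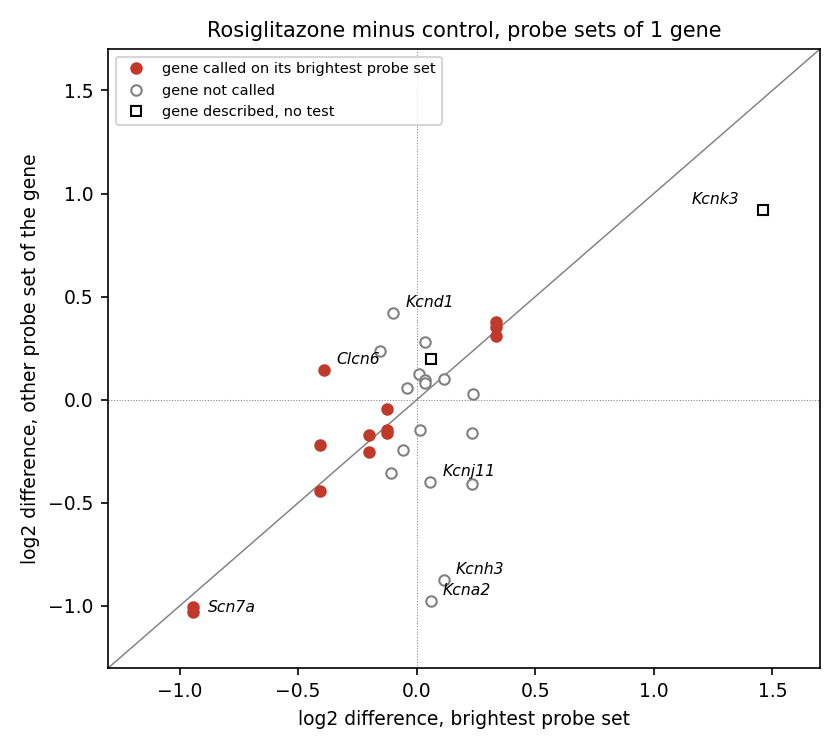
Log2 difference, rosiglitazone minus control, of the brightest probe set of a gene (horizontal axis) and of its other probe sets past the filter (vertical axis), 32 points from 21 genes; the grey diagonal is equality. Red points of called genes lie near the diagonal apart from Clcn6, while open points of Kcna2 and Kcnh3 lie at −0.98 and −0.87 on the vertical axis alone.

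Markers of other cells moved in the same arrays. For the counts below, 35.7% of all 12947 genes tested were called lower and 23.6% higher. The 13 macrophage markers summed to between 3855 and 4168 on the rosiglitazone arrays and between 11498 and 12491 on the control arrays. Of the 11 tested 10 were lower, and Cd163 lay under the floor on all 6 arrays. The 10 smooth muscle or pericyte markers summed to between 6874 and 6913 with rosiglitazone and between 12317 and 12719 in control cells. Of these, 7 were lower and 2 higher, namely Des and Cspg4, at 0.21 and 0.38 on the log2 scale. Rgs5 did not pass the test, at 0.06, so the markers of this list did not move as 1 group. The 7 include Cnn1, which passed the filter through the control arrays alone, so its fall is no test. The 7 fibroblast or preadipocyte markers summed to between 9661 and 10164 with rosiglitazone and between 18309.7 and 18873 in control cells, with 5 of 6 tested lower and Dpp4 under the floor on all arrays. The 4 markers of heat-producing fat cells summed to between 18449.7 and 19304 with rosiglitazone and between 3747 and 4442 in control cells. All 4 were higher with rosiglitazone. Ucp1 lay under the floor on all 3 control arrays and passed the filter through the rosiglitazone arrays alone. Its rise is thus a description and no test. In such bulk samples fewer cells of a type and less RNA per cell cannot be told apart. The part of these markers in the falls of Scn7a, Kcne4, Cacna2d1, Kcnk6, Clcn6, P2rx4 and Trpm7, in the lower values of Kcnab1, Kcnab2 and Scn3b, or in the rises was not tested. Of the 8 neuron or Schwann cell markers 6 were on the array and Snap25 was under the floor on 5 of the 6 arrays. Their sum lay between 658 and 714 with rosiglitazone and between 352 and 371 in control cells, with S100b, which fat cells also express, called higher and Tubb3 and Sox10 called lower. The 5 endothelial markers summed to between 168 and 183 with rosiglitazone and between 382 and 399 in control cells, and Tek and Flt1, the 2 tested, fell. The lower sum rests mainly on these 2 genes. The rest of this list was dim, and Pecam1 and Kdr were each under the floor on 5 of the 6 arrays. Pecam1 averaged 13.2 with rosiglitazone and 11.9 in control cells, Cdh5 23.5 and 20.5, and Kdr 4.86 and 9.16, in the same order of groups. Skeletal muscle markers summed to between 265 and 336 with rosiglitazone and between 270.4 and 296 in control cells, so the ranges overlapped. Of the 2 tested, Ckm rose (limma adjusted p = 0.0426) and Acta1 did not pass the test. The tested lymphocyte markers Cd8a and Cd79b and epithelial markers Krt8 and Krt19 did not pass the test. Lymphocyte markers summed to between 139 and 153 with rosiglitazone and between 136 and 137 in control cells, and epithelial ones to between 172 and 180 and between 168 and 195 in the same order.

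Other channels, ion pumps and cation transporters, from a list of 80 genes, were read in the same way. Of these 69 had a probe set with 1 symbol and 50 passed the filter; 10 rose, 16 fell and 24 did not pass the test, so 52.0% were called, beside 59.3% of all genes tested. Atp2a3, a pump that returns calcium to the endoplasmic reticulum, averaged 235 ± 12.7 with rosiglitazone and 73.4 ± 3.12 in control cells (SD, n = 3 each), a rise of 1.68 on the log2 scale (adjusted p = 5.67e-11), or of 0.83 averaged over its probe sets. Itpr3, a calcium release channel, had 19.4, 20.8 and 17.8 with rosiglitazone and 41.2, 46.96 and 35.9 in control cells. It passed the filter on low values through the control arrays alone, so this is given as values with no test, although limma's count of falls above includes it. Atp2b1, a calcium pump of the cell surface, fell by 0.73 (adjusted p = 9.06e-09), and the chloride channel protein gene Clic1 fell by 0.72 (adjusted p = 4.17e-10).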

How the data were processed

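RNA of differentiated inguinal fat cells was read on an Affymetrix mouse expression array, 1 array for each of 6 samples, per the labels. The deposited values are linear probe set intensity. How the authors corrected, summarized and scaled them was not given in the labels or the file header. Array medians lay between 44.46 and 46.66, 0 pairs of arrays were identical, and the number of arrays limits the precision. Samples were grouped by title, since the protocol text names the drug for every sample.

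Intensities under 16 were raised to 16 before taking log2 of the deposited values. Left out were 64 control probe sets and the dimmest 40% of all others by mean log2. Names came from the platform annotation (34945 probe sets with 1 symbol, 932 with several, 9160 with none), and a gene was read from its brightest probe set with 1 symbol. The comparison used limma 3.58.1 under R 4.3.3 (lmFit, then eBayes with trend), two-sided and without covariates, with Benjamini-Hochberg adjustment over 12947 genes and a limit of 0.05; the code was tested on simulated data. With 3 arrays a side, exact permutation could reach a two-sided p of 0.1 at best. Deviations of same-numbered arrays from their group means correlated at −0.0213, −0.0232 and 0.0606, so the numbers were not taken as pairs.

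The members, their roles, the marker lists and the list of other channels were chosen with earlier results of these data known. Named by rule were Otop1, Kcnk3, P2rx5, members that differed by at least 2-fold or reached 50 in 1 group only, the 2 brightest members of each role, and the 4 called genes with the largest difference in the list of other channels; the remaining members are named so that each is accounted for. Alternatives were quantile normalization, median centring, a floor of 64, log2(value + 1), 2 weaker filters, averaging over probe sets, eBayes without trend, robust eBayes, a replicate block, leaving out each array, and member thresholds of 25 and 100.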

Additional observations from a re-analysis of the deposited data

How the results depend on the processing

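Of the 14 called members, 11 were called in the same direction in all 16 alternative fits (Cacna2d1, Cacng5, Clcn3, Kcnd3, Kcne4, Kcnip1, Kcnk13, Kcnk6, P2rx5, Scn7a and Trpv2). Trpm7 was lost after quantile normalization, median centring or averaging over probe sets, P2rx4 after median centring and Clcn6 on averaging over probe sets. After median centring 22 of 41 members were called, beside 66.0% of all genes past the same threshold. Kcna2 was called lower on averaging over its probe sets (−0.46, limma adjusted p = 0.0138), against 0.06 and no call on its brightest one. Kcnmb4, not called at 0.28, was called in 5 fits, at 0.34 after quantile normalization, 0.40 after median centring, 0.24 with a floor of 64, and 0.28 on averaging or without a trend. With single arrays left out, 14 to 16 of the 41 members were called, beside 59.3% to 63.3% of the 10886 genes past the same threshold. Of the other channels and pumps 23 to 27 were called with single arrays left out. That list was not held to the threshold of 50, so the shares of the 10886 genes are no comparison for it. Nothing is read from these counts. Gained in this way were Cacng2 without control replicate 1 (0.31), Kcnh3 without control replicate 2 (0.30), Trpm2 and Trpc4ap without control replicate 3 (0.36 and −0.14), and Kcnq1ot1 without rosiglitazone replicate 1 (0.37). With the replicate number as a block 14 members were called, beside 65.2% of the 10886 genes, and the block changed no member's call. Leaving out Kcnq1ot1 and Trpc4ap, chosen after seeing the data, left 14 of 39 called, beside 65.0% of the 10886 genes. For Otop1 the log2 difference was 3.81 with a floor of 16, 1.81 with a floor of 64 and 4.91 as log2(value + 1). For Kcnk3 it ran from 1.19 on averaging over probe sets to 1.58 after median centring. The value of Scn3b, −0.63, was −0.91 without rosiglitazone replicate 1. With a floor of 64 Kcnab1 lay at −0.54 and Kcnab2 at −0.05, against −0.63 with a floor of 16, and Scn3b, Clcn2 and Kcnma1 wholly at the floor. Itpr3, in the list of other channels, did not pass the filter without control replicate 1 or 2, and with a floor of 64 lay wholly at the floor. Causes of these shifts were not tested.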

Other observations

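Several small families in the list of other channels were singled out after their values were seen. Their p-values and calls are thus a description and no test. Of the genes for calcium entry coupled to store release, the sensors Stim1 and Stim2 fell by 0.34 and 0.29 on the log2 scale (limma adjusted p = 7.45e-07 and 0.000181). After median centring they were −0.22 and −0.17 and still called, and averaged over probe sets −0.48 and −0.58. The pore genes Orai1 and Orai3 fell by 0.24 and 0.16, but were −0.11 and −0.04 and not called after median centring, and Orai2 had a log2 difference of 0.27 (adjusted p = 0.164). The mitochondrial outer membrane channels Vdac1, Vdac2 and Vdac3 rose by 0.21, 0.23 and 0.27, and median-centred values gave 0.33, 0.36 and 0.40 where quantile-normalized ones gave 0.14, 0.14 and 0.22. Of the volume-regulated anion channel genes Lrrc8a fell by 0.33 (−0.21 and still called after median centring) and Lrrc8d fell by 0.23 (−0.11 and not called there), while Lrrc8c and Lrrc8e did not pass the test.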
